A study of Mus musculus with 6 samples.

Results

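Livers of mice given costunolide and then acetaminophen were set against untreated liver, and the genes described are those measured in these livers. They were the genes with a mean of at least 1 FPKM (fragments per kilobase, a level corrected for gene length and library depth) over the 4 libraries of both groups, which held for 10028 of the 55401 genes in the table. Pcnx4, with a mean of 1.0 FPKM, lay just inside this limit, and Nup155, with 0.9975 FPKM, just outside. The labels give liver of C57BL/6 mice as the source of all RNA, in 6 libraries that form 3 groups of 2. The control group (con in the labels, replicates 1 and 3) carries no treatment in the labels. The COS+APAP group (replicates 2 and 3) had costunolide (COS) at 20 mg/kg, given 12 h and again 40 min ahead of acetaminophen (APAP) at 400 mg/kg injected into the peritoneum, and APAP acted for 6 h. The APAP group (replicates 1 and 3), used for comparison, had the same APAP dose for 6 h without COS. Livers given COS alone were not analysed here, so in COS+APAP against control the effects of both compounds cannot be told apart.

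Several points in the labels limit what these groups can show. The extraction text speaks of an adipose type, whereas source names and tissue fields say liver. The protocol text assigns the pretreatment to samples 5 and 6, which in accession order are the libraries titled model. Titles, source names and treatment fields were followed instead, and were they wrong, the values given for COS+APAP and APAP would be exchanged. The COS+APAP titles carry the prefix 2 and the other titles the prefix 1, so whatever goes with that prefix cannot be told apart from the treatment. The labels give no sex, age or hour of collection, and they do not say that libraries came from separate animals, so the p-values measure the spread between these libraries, which may be technical. With 2 libraries against 2, an exact permutation test of a single gene cannot give a p below 0.33, and the calls below rest on a spread shared across genes and groups. These are bulk samples, in which fewer cells of a type and less RNA per cell cannot be told apart.

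As background, APAP is mostly cleared by conjugation, but cytochrome P450 enzymes, CYP2E1 first among them, oxidise part of it to a reactive quinone imine that is trapped by glutathione. After an overdose glutathione runs out, proteins of the hepatocytes around the central vein are adducted, mitochondria fail and these pericentral cells die. Costunolide is a plant sesquiterpene lactone whose exocyclic methylene group reacts with thiols. Hepatocytes also answer inflammatory cytokines by secreting acute phase proteins, hold the liver's sterol and fat synthesis under control of the SREBP transcription factors, and keep a low level of interferon-stimulated genes.

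The 4 libraries held 71115112 to 75430358 estimated counts, and 9654 to 10153 genes reached 1 FPKM in each. Hepatocyte markers were high in every library, with albumin (Alb) at 28986 and 29091 FPKM in control and 27518 and 26619 in COS+APAP. Mitochondrially encoded transcripts held 12.78% and 16.09% of counts in control and 11.8% and 10.83% in COS+APAP. Within groups, 353 genes differed by more than 1 on the log2 FPKM scale between the control libraries and 251 between the COS+APAP libraries.

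Between COS+APAP and control, 2114 of the 10028 genes passed an adjusted p of 0.05 in edgeR's quasi-likelihood test (21.1%). Of these, 1106 rose (11%) and 1008 fell (10.1%), of which 475 rose and 514 fell at least 2-fold (4.74% and 5.13%). The median log2 fold change over all tested genes was 0.03. In the APAP group, tested against the same control libraries, 2304 genes rose (23%) and 2163 fell (21.6%), and 44.5% were called in all. COS+APAP directly against APAP gave 1112 genes higher (11.1%) and 1038 lower (10.4%), 21.4% in all. The numbers called in COS+APAP against control depended on single libraries, from 333 rises and 285 falls without COS+APAP replicate 3 to 728 and 550 without control replicate 1. Without control replicate 3 they were 369 and 367, and without COS+APAP replicate 2 they were 500 and 437. List counts without single libraries, given below, are to be read beside these lower numbers. With library totals alone as the scale, which lowered the median of all genes by 0.193, 701 genes rose and 1686 fell (29.4% of calls higher), so small falls and small rises depend on the scaling.

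**Figure D1:**
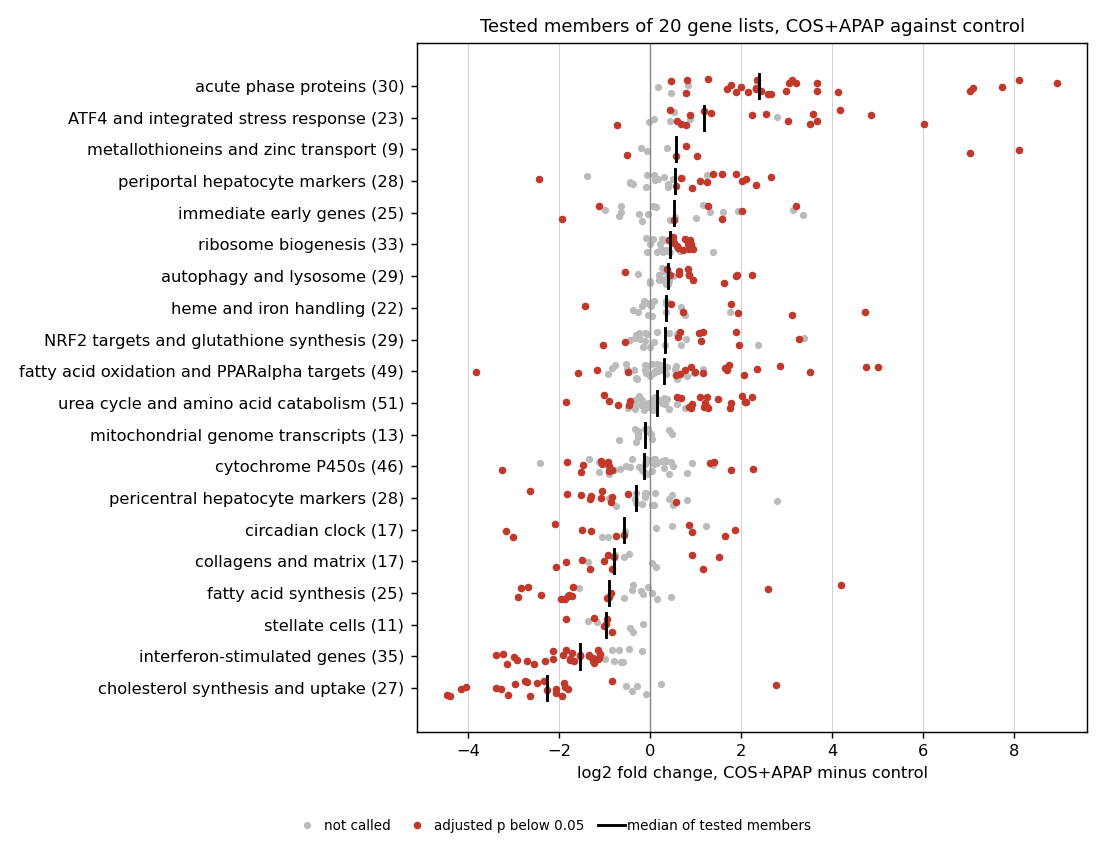
Log2 fold changes (x axis, COS+APAP minus control) of the tested members of 20 gene lists, 1 point a gene, red where edgeR's adjusted p was below 0.05 and grey otherwise, with the number of members in brackets and the median as a black bar. Acute phase proteins lie furthest right, with a median of 2.39, and cholesterol synthesis furthest left, with a median of -2.25.

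Acute phase proteins, the plasma proteins that hepatocytes make under inflammatory cytokines, had the highest median of the 46 gene lists. Of 32 listed genes 30 passed the filter, and of these 27 rose, 0 fell and 3 did not pass the test, beside 11% of all tested genes that rose. Their median log2 fold change was 2.39, beside 0.03 over all tested genes. Together the 32 listed genes made up 2.87% and 2.32% of all FPKM in control, 9.13% and 11.7% in COS+APAP, and 5.52% and 5.84% in APAP. Against APAP, 19 of the 30 were higher in COS+APAP and 0 lower, with a median of 1.18. Leaving out any one of the 4 libraries left 23 to 27 rises, and 22 members were called in each of these 4 fits.

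Serum amyloid A proteins replace other apolipoproteins on high-density lipoprotein in inflammation, and Saa2 and Saa1 had the largest log2 fold changes of the list. Saa2 (ENSMUSG00000057465, chromosome 7, 46751790 to 46754313, plus strand) stood at 3.71 and 3.69 FPKM in control and 851 and 2371 in COS+APAP. In APAP it stood at 6.98 and 14.6 FPKM, so both COS+APAP libraries lay far above the other 4. Its log2 fold change against control was 8.95 ± 0.76 (edgeR adjusted p = 0.00349) and against APAP 7.22 ± 0.71 (adjusted p = 0.00644). Saa1, a near-identical copy that can share reads with Saa2, stood at 11.5 and 7.32 FPKM in control and 1095 and 2468 in COS+APAP and rose by 7.74. In both genes COS+APAP replicate 3 was the higher of the pair. Saa4, the constitutive member of the family, rose by 1.69 in COS+APAP and stood at -1.44 in APAP against the same controls (adjusted p = 0.00378).

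Lcn2, lipocalin 2, which withholds iron from bacteria by binding their siderophores, had 3.16 and 3.34 FPKM in control and 378 and 412 in COS+APAP. It rose by 7.10 ± 0.55 (adjusted p = 0.00314), and in APAP it had 26.9 and 72.8 FPKM, below both COS+APAP libraries (difference 2.99, adjusted p = 0.0135). Haptoglobin (Hp), the scavenger of free hemoglobin, was among the 5 genes with the largest gain in FPKM, from 2489.6 and 2254 FPKM in control to 9314 and 11664 in COS+APAP. In APAP it had 2395 and 2744 FPKM, and its difference between COS+APAP and APAP was 2.02 ± 0.20 (adjusted p = 0.00644). Orm2, an orosomucoid that carries drugs in plasma, had 32.4 and 30.9 FPKM in control and 346 and 632 in COS+APAP, against 20.0 and 25.8 in APAP. Orm1 and Orm3 rose by 2.16 and 3.67, and the Orm genes can share reads.

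The 3 fibrinogen chains rose together, Fga by 2.99, Fgg by 2.65 and Fgb by 2.35. Fgb had 541 and 479 FPKM in control and 2193 and 2407 in COS+APAP and 972 and 1179 FPKM in APAP, so that APAP lay between both groups (adjusted p against COS+APAP = 0.0149). The protease inhibitor Serpina3n (3.68), the pentraxin Apcs (3.05), the lipopolysaccharide-binding protein Lbp (2.34) and complement C3 (1.27) rose as well, C3 not without COS+APAP replicate 3 (adjusted p = 0.0634). Crp, which is a minor acute phase protein in mice, did not pass (0.18, adjusted p = 0.299), nor did complement factor Cfb (0.47, adjusted p = 0.0618) and Serpina3k (0.83, adjusted p = 0.0522).

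**Figure D2:**
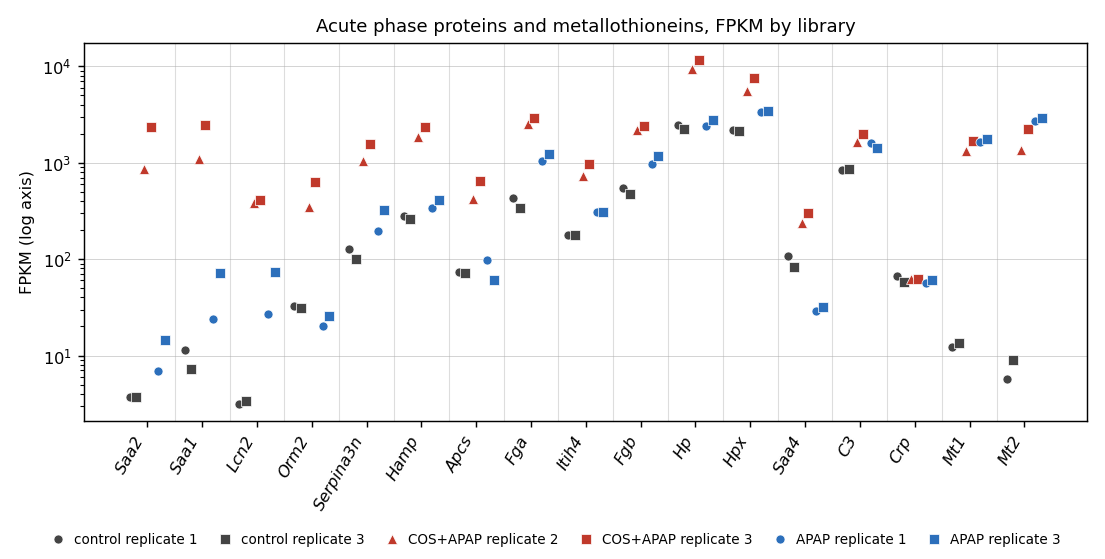
FPKM (log axis) of 15 acute phase genes and of Mt1 and Mt2 in each library, dark for control, red for COS+APAP and blue for APAP, with 1 symbol a library. Saa2 lies at 851 and 2371 FPKM in COS+APAP and below 15 in the other 4 libraries, while Mt1 and Mt2 lie close together in COS+APAP and APAP.

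Hamp encodes hepcidin, the hormone that closes the iron exporter ferroportin and is switched on by IL-6 through STAT3. It had 283 and 260.3 FPKM in control and 1838 and 2359 in COS+APAP, and 337 and 407 FPKM in APAP. Its log2 fold change against control was 3.13 ± 0.18 (adjusted p = 0.00212) and against APAP 2.48 ± 0.18 (adjusted p = 0.00441). The promoters of Hamp and Fgb, 2 called members whose 250 bases before the gene start hold a match to the STAT motif TTCNNNGAA, are shown from RefSeq (build GRCm38.p6), 5′ to 3′ on the gene's strand with the match in capitals. They were picked after the matches were seen. Hamp lies at chr7:30944030-30944279 on the minus strand and Fgb at chr3:83049864-83050113 on the minus strand.
Hamp: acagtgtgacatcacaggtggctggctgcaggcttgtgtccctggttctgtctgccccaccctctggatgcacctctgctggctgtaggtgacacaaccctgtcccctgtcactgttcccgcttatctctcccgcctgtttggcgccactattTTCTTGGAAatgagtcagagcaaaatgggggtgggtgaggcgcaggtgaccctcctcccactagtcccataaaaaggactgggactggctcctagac
Fgb: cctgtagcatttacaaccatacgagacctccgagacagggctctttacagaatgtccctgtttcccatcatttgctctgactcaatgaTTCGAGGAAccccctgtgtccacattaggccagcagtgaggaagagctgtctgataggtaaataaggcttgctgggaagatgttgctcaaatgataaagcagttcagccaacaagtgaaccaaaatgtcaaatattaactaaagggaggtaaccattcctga
A promoter was found for 7131 of the 10028 tested genes. The motif, read on both strands with each palindromic match counted once, was in 6 of 23 acute phase promoters (26.1%) and in 395 of all 7131 (5.54%). The AP-1 motif TGANTCA was in 7 of the 23 (30.4%) and in 4.29% of all. Among the 23 promoters of interferon-stimulated genes, a list that fell, the shares were close to these, 21.7% for the STAT motif and 30.4% for the AP-1 motif. A match describes letters in this window and shows no binding.

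Acute phase genes are switched on through the receptors of interleukins 1 and 6. Of 18 tested genes of cytokine signalling 4 rose, 3 fell and 11 did not pass, beside 11% and 10.1% of all tested genes. The median of the list was 0.26. The 3 falls became 2, 3, 1 and 0 without control replicates 1 and 3 and COS+APAP replicates 2 and 3. Il1r1, the receptor of interleukin 1, had 4.28 and 2.48 FPKM in control and 32.0 and 19.1 in COS+APAP and rose by 3.09 ± 0.36 (adjusted p = 0.00689). Il6ra, the ligand-binding chain of the IL-6 receptor, rose by 1.71 and Stat3 by 1.14, whereas Socs3, their feedback inhibitor, did not pass (0.86, adjusted p = 0.164). Cish, a feedback gene of growth hormone and STAT5, fell from 7.26 and 9.68 FPKM to 0.61 and 0.33 (-4.00). Of 13 tested cytokines and chemokines 3 rose and 2 fell, and 1 or 2 rises were called without any one of the 4 libraries. Cxcl1, a neutrophil attractant, rose by 3.12 and Il1b stood at 0.13 and 0.12 FPKM beside 1.59 and 2.20 in control (-3.67, adjusted p = 0.0204). Il1b reached the filter only through its control libraries, and Il6 and Tnf did not reach it. Without single libraries, Cxcl1 (adjusted p up to 0.062 without control replicate 1 or 3), Il1b (up to 0.108 without control replicate 3 or either COS+APAP library) and Cish (0.0539 without COS+APAP replicate 3) were not called.

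Metallothioneins, which bind zinc and copper and are induced by metals and glucocorticoids, rose in COS+APAP and in APAP. Mt2 (ENSMUSG00000031762, chromosome 8, 94172664 to 94173568, plus strand) had 5.68 and 8.99 FPKM in control and 1361 and 2219 in COS+APAP, and Mt1 had 12.3 and 13.5 FPKM in control and 1329 and 1682 in COS+APAP. In APAP, Mt2 had 2706 and 2911 FPKM and Mt1 1659 and 1745. Mt2 rose by 8.11 ± 0.41 (adjusted p = 0.00191) and Mt1 by 7.04 ± 0.21 (adjusted p = 0.00048). Against APAP, Mt2 differed by -0.66 ± 0.30 (adjusted p = 0.172) and Mt1 by -0.19 ± 0.16 (adjusted p = 0.424), neither of which passed. Gm45774, an antisense entry that overlaps Mt2, rose by 7.93, and without known strand of counting its reads and those of Mt2 cannot be told apart. Of 9 tested genes of the metallothionein and zinc list 5 rose and 1 fell, while 2 to 4 rises and 0 falls were called without any one of the 4 libraries. The zinc exporter Slc30a1 rose by 0.79 and the importer Slc39a14 by 1.04, and the call of Slc30a1 was lost without control replicate 3 or COS+APAP replicate 3 (adjusted p up to 0.0546) and that of Slc39a14 was lost without control replicate 1 or control replicate 3 or COS+APAP replicate 3 (adjusted p up to 0.129).

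Of 22 tested genes of heme and iron handling 6 rose, 1 fell and 15 did not pass, beside 11% and 10.1% of all tested genes. The median of the list was 0.34. Hmox1, heme oxygenase 1, which breaks down heme and is a target of NRF2, had 5.28 and 5.35 FPKM in control and 90.6 and 158 in COS+APAP, and 772 and 689 FPKM in APAP. COS+APAP thus lay between both other groups, 4.72 ± 0.32 above control (adjusted p = 0.00268) and at -2.57 ± 0.29 against APAP (adjusted p = 0.00778). Hemopexin (Hpx), which carries heme, rose by 1.78 and Hfe, a regulator of hepcidin, by 1.94. The transferrin receptor Tfrc stood at 2.13 and 2.89 FPKM beside 7.86 and 7.49 in control and 7.28 and 5.06 in APAP (-1.43, adjusted p = 0.0162, up to 0.0683 without control replicate 1 or 3 or COS+APAP replicate 2).

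Interferon-stimulated genes, antiviral genes held on by tonic interferon signalling, fell together. Of 42 listed genes 35 passed the filter, and of these 0 rose, 27 fell and 8 did not pass, beside 10.1% of all tested genes that fell. The median log2 fold change was -1.53. In APAP against the same controls 1 rose and 23 fell, with a median of -1.08, and in COS+APAP against APAP 1 was higher and 6 lower, with a median of -0.26. The 27 falls became 25 without control replicate 1, 16 without control replicate 3, 14 without COS+APAP replicate 2 and 10 without COS+APAP replicate 3.

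Isg15 (ENSMUSG00000035692, chromosome 4, 156199455 to 156200796, minus strand), a ubiquitin-like protein attached to other proteins in antiviral cells, had 87.0 and 129 FPKM in control and 10.5 and 9.95 in COS+APAP. In APAP it had 12.7 and 10.6 FPKM, so all 4 treated libraries lay at a similar low level. Its log2 fold change was -3.22 ± 0.23 (adjusted p = 0.00284), and the difference from APAP was -0.21 ± 0.22 (adjusted p = 0.524). Ifit3b, of the family that binds viral RNA, went from 4.98 and 7.75 FPKM to 0.47 and 0.60, below the 2.08 and 1.64 of APAP (difference -1.80, adjusted p = 0.0169). Igtp, a GTPase of cell-autonomous immunity (-3.0), and the membrane tether Bst2 (-1.25) fell. Iigp1, another such GTPase, had 25 and 21.8 FPKM in control and 8.96 and 5.39 in COS+APAP but 46.2 and 46.1 FPKM in APAP, so its values lay on opposite sides of control (-1.53 in COS+APAP and 1.17 in APAP). Without control replicate 1 or 3 the fall of Iigp1 was not called (adjusted p up to 0.0516). Mx2 had 2.52 and 4.96 FPKM in control and 1.72 and 4.07 in COS+APAP and did not pass (-0.18, adjusted p = 0.833).

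The promoters of Isg15, Ifit3 and Ifit1 are shown because each holds 2 or more matches to the core of the interferon-stimulated response element, which interferon signalling acts through. That core was searched on both strands as 2 copies of GAAA set 2 bases apart. They are printed as 250 bases before the gene start (RefSeq, GRCm38.p6), 5′ to 3′ on the gene's strand, with matches on either strand in capitals, and were picked after the matches were seen. Isg15 lies at chr4:156200819-156201068 on the minus strand, with 3 overlapping matches. Ifit3 lies at chr19:34583279-34583528 and Ifit1 at chr19:34640639-34640888, both on the plus strand, with 2 matches each.
Isg15: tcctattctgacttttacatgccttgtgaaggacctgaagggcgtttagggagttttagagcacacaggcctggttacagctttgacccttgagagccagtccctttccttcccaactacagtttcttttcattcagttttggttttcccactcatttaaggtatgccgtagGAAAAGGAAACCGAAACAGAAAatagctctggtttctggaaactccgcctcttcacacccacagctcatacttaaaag
Ifit3: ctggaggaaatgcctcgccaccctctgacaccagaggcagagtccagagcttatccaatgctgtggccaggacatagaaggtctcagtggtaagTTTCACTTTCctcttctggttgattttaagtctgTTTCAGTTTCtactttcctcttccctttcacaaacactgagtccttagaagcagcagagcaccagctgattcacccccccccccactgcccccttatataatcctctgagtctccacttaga
Ifit1: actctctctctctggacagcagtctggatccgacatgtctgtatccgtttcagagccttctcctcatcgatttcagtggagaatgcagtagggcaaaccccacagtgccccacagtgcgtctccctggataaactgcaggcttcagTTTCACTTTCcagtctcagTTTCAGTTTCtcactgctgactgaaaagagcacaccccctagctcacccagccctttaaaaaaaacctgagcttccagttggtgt
The motif was in 13 of 23 promoters of interferon-stimulated genes (56.5%) and in 186 of the 7131 promoters of all tested genes (2.61%). Ifit3 fell from 23.0 and 31.4 FPKM to 2.16 and 3.28, and Ifit1 from 9.29 and 15.2 to 1.17 and 1.69. Neither call held in every fit, with adjusted p up to 0.0875 for Ifit3 without control replicate 3 or either COS+APAP library and 0.0502 for Ifit1 without COS+APAP replicate 2.

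Cholesterol synthesis and uptake had the lowest median of the 46 gene lists. Of 28 listed genes 27 were tested, and of these 1 rose, 21 fell and 5 did not pass, beside 10.1% of all tested genes that fell. The median log2 fold change was -2.25. In APAP against control 1 rose and 17 fell, with a median of -1.2, and COS+APAP was lower than APAP for 11 members and higher for 1. The 21 falls became 20, 17, 19 and 15 when control replicates 1 and 3 and COS+APAP replicates 2 and 3 were left out in turn.

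The early steps of the pathway lead from acetyl-CoA to isoprenoid units. Hmgcs1 (ENSMUSG00000093930, chromosome 13, 119690379 to 119708260, plus strand), the synthase that makes HMG-CoA, had 141 and 226 FPKM in control and 10.9 and 8.80 in COS+APAP, and 40.9 and 18.7 FPKM in APAP. It fell by 4.04 ± 0.47 (adjusted p = 0.0068). Idi1, an isomerase of isoprenoid units, had 26.5 and 30.3 FPKM in control and 1.27 and 1.01 in COS+APAP, and 13.3 and 8.23 in APAP. It fell by 4.46 ± 0.31 against control (adjusted p = 0.00268) and lay -3.26 ± 0.29 from APAP (adjusted p = 0.00614). Mvd, mevalonate decarboxylase, fell as well (-4.39). Fdft1 and Sqle, which make and oxidise squalene, fell (-3.28 and -2.25). Dhcr7, a reductase late in the pathway, stood at -1.94 (adjusted p = 0.00349).

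Among the regulators, Insig1 and Insig2 both hold SREBP in the endoplasmic reticulum, and they moved apart. Insig1 went from 109 and 119 FPKM to 10.4 and 8.89 (-3.39) and Insig2 from 22.4 and 16.3 to 129.9 and 105 (2.77, adjusted p = 0.00349). Srebf2, which encodes the SREBP of sterol synthesis, did not pass (-0.09, adjusted p = 0.897). The call of Insig1 was lost without COS+APAP replicate 3 (adjusted p = 0.0557).

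The promoter of Hmgcs1 is shown because it holds the sterol regulatory motif TCACNCCAC, found in 1 of 19 promoters of this group (5.26%) and in 73 of all 7131 (1.02%). It was also in 2 of 23 acute phase promoters (8.7%), a list that rose. It spans chr13:119690101-119690350 on the plus strand (RefSeq, GRCm38.p6), printed 5′ to 3′ with the match in capitals.
Hmgcs1: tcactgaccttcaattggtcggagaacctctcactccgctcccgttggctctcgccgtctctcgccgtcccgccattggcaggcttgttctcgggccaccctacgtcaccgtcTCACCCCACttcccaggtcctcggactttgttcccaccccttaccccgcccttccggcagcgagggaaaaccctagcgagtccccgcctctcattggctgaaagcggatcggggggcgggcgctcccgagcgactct
Absence of a match says only that these letters are not in the window searched.

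**Figure D3:**
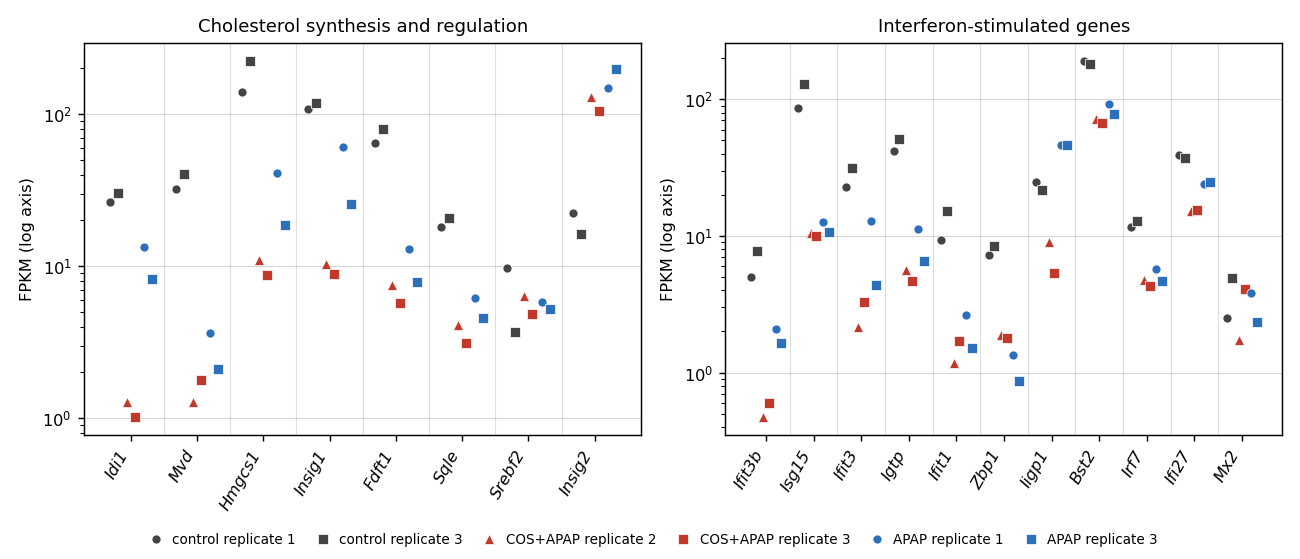
FPKM (log axis) of 8 genes of cholesterol synthesis and its regulation (left) and 11 interferon-stimulated genes (right) in each library, with colours for groups and symbols for replicates. Idi1 lies near 1 FPKM in both COS+APAP libraries and above 8 in the other 4, whereas Isg15 lies between 9.95 and 12.7 FPKM in all 4 treated libraries.

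Fatty acid synthesis fell in part. Of 25 tested genes 2 rose, 13 fell and 10 did not pass, with a median of -0.91, and 11 or 12 falls were called without any one of the 4 libraries, 10 members in each of these fits. Srebf1, which encodes the SREBP of lipogenesis and overlaps Rai1 on the opposite strand, had 27.7 and 29.0 FPKM in control and 3.45 and 3.60 in COS+APAP, and fell by 2.83 ± 0.12 (adjusted p = 0.00155). Fasn, fatty acid synthase, went from 35.1 and 44.3 FPKM to 5.39 and 5.54 (-2.68 ± 0.17, adjusted p = 0.00256). Acly (-1.96), Elovl6 (-2.39) and the glucose-responsive factor Mlxipl (-1.88) fell as well. Thrsp, a lipogenic regulator, had 189 and 269.5 FPKM in control and 31.8 and 22.2 in COS+APAP and the still lower 8.52 and 6.93 FPKM in APAP, a difference of 1.78 (adjusted p = 0.0125). Scd1, which desaturates stearate, did not pass (-0.38, adjusted p = 0.552). The 2 rises were Elovl3 (2.60) and Lpin1 (4.20), and both were lost without single libraries (adjusted p up to 0.0926 without control replicate 1 or 3, and up to 0.109 without control replicate 3 or any library of COS+APAP or APAP).

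Pericentral hepatocytes, the cells that APAP kills, were described by a list of 32 markers, of which 28 were tested. In COS+APAP 1 rose, 10 fell and 17 did not pass, beside 10.1% of all genes that fell, with a median of -0.31. In APAP 0 rose and 23 fell against the same controls, beside 23% and 21.6% of all tested genes, with a median of -1.66. COS+APAP against APAP was higher for 20 members and lower for 1, with a median of 1.4. The 10 falls against control became 7, 6, 3 and 3 without control replicates 1 and 3 and COS+APAP replicates 2 and 3.

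Markers that did not pass against control included some of those of the cells next to the central vein. Glul, glutamine synthetase, restricted to that layer, had 159 and 141 FPKM in control and 129 and 82.9 in COS+APAP and 18.0 and 27.8 FPKM in APAP. It did not pass against control (-0.33 ± 0.28, adjusted p = 0.433) and was 2.20 ± 0.29 above APAP (adjusted p = 0.0103). Oat, ornithine aminotransferase, had 302 and 270.1 FPKM in control and 214 and 194 in COS+APAP and 16.0 and 22.5 in APAP. Cyp7a1 (ENSMUSG00000028240, chromosome 4, 6265612 to 6275633, minus strand), the hydroxylase that starts the conversion of cholesterol to bile acids, had 28.7 and 38.9 FPKM in control and 22.2 and 39.6 in COS+APAP against 0.93 and 0.53 in APAP. Its difference from control was 0.05 ± 0.39 (adjusted p = 0.937) and from APAP 5.39 ± 0.47 (adjusted p = 0.00593). The ammonium transporter Rhbg, with 6.05 and 4.3 FPKM in COS+APAP beside 8.13 and 4.36 in control, and the glutamate transporter Slc1a2, with 7.63 and 4.49 beside 7.91 and 6.74, likewise did not pass (adjusted p = 0.886 and 0.943). Such a miss does not show equal levels, and 10 of the 28 tested pericentral markers fell. Among those that fell was Lect2 (-1.32, edgeR adjusted p = 0.0451), which was not called without any one of the 4 libraries.

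Cyp2e1, the P450 that oxidises APAP to its quinone imine, had 2359.6 and 1644 FPKM in control and 2773 and 2265 in COS+APAP, with a log2 fold change of 0.51 ± 0.27 that did not pass (adjusted p = 0.229). In APAP it had 816 and 1189 FPKM, and COS+APAP was 1.32 ± 0.27 above it (adjusted p = 0.0263). Of the other P450s on the pericentral list, Cyp27a1, the single rise of that list, had 177 and 163 FPKM in control and 227 and 223 in COS+APAP (0.58, adjusted p = 0.0433, up to 0.16 and not called without any one of the 4 libraries). Cyp2a5 stood at 0.81 (adjusted p = 0.176), and the following were below control. Cyp1a2 had 461 and 495 FPKM in control and 204 and 196 in COS+APAP (-1.08 ± 0.15, adjusted p = 0.00924), and 51.9 and 68.5 in APAP. Cyp2c29 stood at -1.83 and Cyp3a11 at -1.52 (adjusted p = 0.0119 and 0.0233), though Cyp3a11 was not called without any one of the 4 libraries (up to 0.119), Cyp2c29 not without COS+APAP replicate 2 (0.0529) and Cyp1a2 not without COS+APAP replicate 3 (0.0568). Ces1d, a carboxylesterase, was the single marker lower than in APAP, with 180.0 and 148 FPKM in control and 22.9 and 23.6 in COS+APAP and 116 and 93.2 in APAP (-2.64 ± 0.18 against control, adjusted p = 0.00269, and -2.18 ± 0.18 against APAP, adjusted p = 0.00546). Genes of the Cyp2c, Cyp3a and Ces1 families can share reads with their near-identical copies.

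Periportal markers, of the cells that receive blood first, had 12 rises, 1 fall and 15 that did not pass among 28 tested. Of all tested genes 11% rose and 10.1% fell. The median of the list was 0.54, and fewer rises were called without any one of the 4 libraries. Sds, serine dehydratase, had 120.1 and 74.1 FPKM in control and 315 and 388 in COS+APAP and rose by 2.03 ± 0.26 (adjusted p = 0.0084). Arg1, arginase, and Asl, argininosuccinate lyase, rose by 1.09 and 1.26, and Igfals, which carries IGF1 in plasma, fell by 2.44. Arg1 was not called without any one of the 4 libraries (adjusted p up to 0.103), Asl not without control replicate 3 or COS+APAP replicate 3 (up to 0.0543), and Igfals not without COS+APAP replicate 3 (0.0593).

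**Figure D4:**
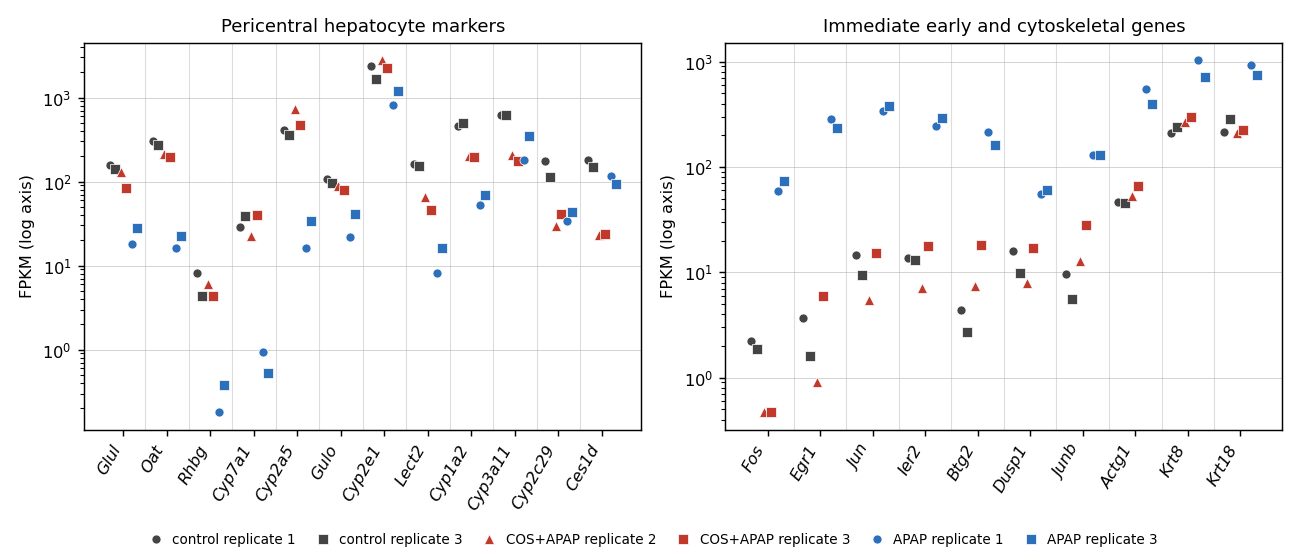
FPKM (log axis) of 12 pericentral markers (left) and of 7 immediate early and 3 cytoskeletal genes (right) in each library, with colours for groups and symbols for replicates. Cyp7a1 lies at 22.2 and 39.6 FPKM in COS+APAP beside 28.7 and 38.9 in control and below 1 in APAP, and Fos lies at 0.47 in both COS+APAP libraries and at 58.7 and 73.8 in APAP.

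Immediate early genes, transcription factors among them, are switched on within minutes of a stimulus. They mostly did not pass in COS+APAP, and its libraries differed: 11 of the 25 tested members were over 1 higher on the log2 FPKM scale in replicate 3 and 0 in replicate 2, with a median difference of 0.73. Of 34 listed genes 25 were tested, of which 5 rose and 2 fell, beside 11% and 10.1% of all tested genes. The other 18 did not pass, and the median of the list was 0.53. In APAP 21 rose and 0 fell, beside 23% and 21.6% of all tested genes, with a median of 3.0. In COS+APAP against APAP 0 were higher and 17 lower, beside 11.1% and 10.4% of all, with a median of -2.2. Fos (ENSMUSG00000021250, chromosome 12, 85473890 to 85477273, plus strand), an AP-1 subunit, had 2.24 and 1.86 FPKM in control and 0.47 and 0.47 in COS+APAP, and 58.7 and 73.8 FPKM in APAP. COS+APAP was thus the lowest group, by -1.94 ± 0.17 against control (adjusted p = 0.00349) and -7.14 ± 0.20 against APAP (adjusted p = 0.000792). Fos reached the filter only through its control libraries, and its fold against control ran from -2.14 to -1.05 over the alternative settings. Its partner Jun had 14.7 and 9.36 FPKM in control and 5.45 and 15.2 in COS+APAP, which did not pass (-0.04, adjusted p = 0.958), and Egr1 had 3.72 and 1.59 FPKM in control and 0.90 and 6.01 in COS+APAP (adjusted p = 0.68). In APAP these stood at 340.2 and 382 and 285 and 232 FPKM. Gadd45b (3.21) and Btg2 (2.02) were among the rises, and neither held without COS+APAP replicate 3 (adjusted p up to 0.117 and 0.157 over the libraries left out). The 5 rises became 3, 2, 7 and 0 without control replicates 1 and 3 and COS+APAP replicates 2 and 3.

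Genes of the integrated stress response, in which the factor ATF4 restores amino acid supply, rose as a group. Of 31 listed genes 23 were tested, of which 16 rose, 1 fell and 6 did not pass, beside 11% and 10.1% of all tested genes that rose and fell. The median was 1.19, beside 0.03 over all tested genes. APAP had 21 rises and 1 fall with a median of 2.06, beside 23% and 21.6% of all tested genes. COS+APAP was lower than APAP for 6 members and higher for 1, beside 10.4% and 11.1% of all. Without any one of the 4 libraries 9 to 14 rises were called. Psat1, an enzyme of serine synthesis, had 0.13 and 0.16 FPKM in control and 3.85 and 3.54 in COS+APAP and rose by 4.86 ± 0.25 (adjusted p = 0.00191). With control near 0, this fold ran from 2.04 to 5.02 over the alternative settings. Asns, asparagine synthetase, had 0.94 and 0.41 FPKM in control and 5.33 and 4.59 in COS+APAP and rose by 3.03 ± 0.41 (adjusted p = 0.00907), with 4.42 and 4.3 FPKM in APAP. Fgf21, a starvation hormone, had 0.65 and 0.93 FPKM in control and 7.66 and 8.34 in COS+APAP and 50.3 and 23.0 in APAP (difference -2.22, adjusted p = 0.0201). Mthfd2 (3.57) of mitochondrial one-carbon metabolism, Ddit4 (3.67), an inhibitor of mTORC1, and Trib3 (2.23) rose, and Shmt2 fell by 0.72. Atf4 itself, which is controlled mainly at translation, did not pass (0.10, adjusted p = 0.797). Gdf15, a stress cytokine, had 2.61 and 3.14 FPKM in control and 4.80 and 4.51 in COS+APAP and 47.2 and 107 FPKM in APAP (0.88 against control, adjusted p = 0.142, and -4.05 against APAP, adjusted p = 0.00644). The motif TGATGNAA of the CHOP and ATF4 composite element was in 5 of 20 promoters of this list (25%) and in 1.92% of all. Shmt2 was not called without COS+APAP replicate 3 (adjusted p = 0.0538).

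The COS+APAP libraries differed from each other in part of the stress genes, and their values are given apart, with no test. Atf3 had 11.05 FPKM in replicate 2 and 99.57 in replicate 3, beside 0.88 and 1.04 in control and 246 and 213 in APAP. Ddit3, which encodes CHOP and overlaps Mars1 on the opposite strand, had 8.2 and 59.48. Srxn1, which repairs peroxiredoxins, had 20.66 and 206.08, and Osgin1, another oxidative stress gene, 7.69 and 88.91. Maff, a small MAF factor, had 0.94 and 25.17, and the heat shock protein Hspa1a 0.5 and 13.31. In each of these 6 genes replicate 3 was the higher library and replicate 2 the lower, and in Osgin1 and Maff replicate 2 lay below both control libraries. Against control, Atf3 was called (6.03 ± 1.11, adjusted p = 0.0193, up to 0.0997 without control replicate 1 or 3), and Ddit3, Srxn1, Osgin1, Maff and Hspa1a were not (adjusted p = 0.0727, 0.1, 0.186, 0.153 and 0.118). Without COS+APAP replicate 2, leaving replicate 3 as the only library of its group, these 5 were called.

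**Figure D5:**
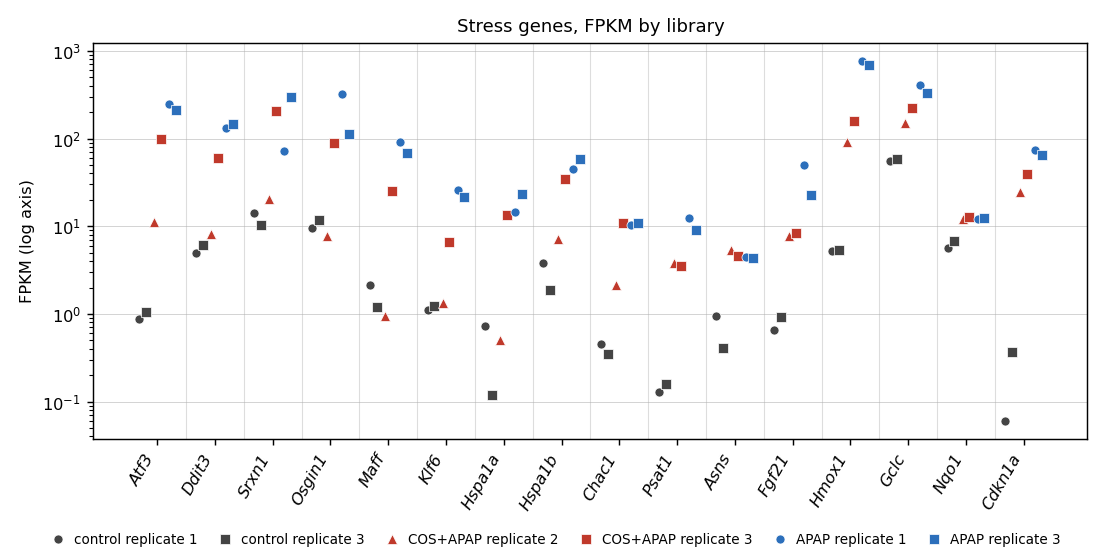
FPKM (log axis) of 16 stress genes in each library, with colours for groups and symbols for replicates. From Atf3 to Hspa1b the COS+APAP libraries lie apart, replicate 2 (triangle) below replicate 3 (square), whereas from Psat1 to Cdkn1a they lie close together.

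Targets of NRF2, the factor freed by electrophiles, rose in part, beside the 11% of all tested genes that rose and the 10.1% that fell. Of 29 tested genes 8 rose, 2 fell and 19 did not pass, with a median of 0.33, and 4 to 8 rises were called without any one of the 4 libraries. In APAP 13 rose and 4 fell, beside 23% and 21.6% of all tested genes. COS+APAP was lower than APAP for 9 members and higher for 2, beside 10.4% and 11.1% of all tested genes. Gclc, the catalytic chain of glutamate-cysteine ligase, had 55.6 and 58.5 FPKM in control and 151 and 225 in COS+APAP and 412 and 329 FPKM in APAP. It rose by 1.90 ± 0.24 (adjusted p = 0.0083) and lay -0.99 ± 0.24 from APAP (adjusted p = 0.0373). Nqo1, a quinone reductase, had 5.64 and 6.71 FPKM in control and 12.0 and 12.6 in COS+APAP and the like 12.0 and 12.6 in APAP, and rose by 1.17. Gclm, the regulatory subunit, which overlaps an antisense entry, had 19.4 and 18.0 FPKM in control and 5.24 and 23.0 in COS+APAP and did not pass (adjusted p = 0.826), though without COS+APAP replicate 3 it was called lower (-1.67). Nfe2l2, which encodes NRF2, had 17.9 and 19.3 FPKM in control and 6.99 and 8.98 in COS+APAP and 17.1 and 14.7 in APAP (-1.04 against control, adjusted p = 0.0143, up to 0.0669 without control replicate 3 or COS+APAP replicate 2). Cdkn1a, the cell cycle inhibitor p21, rose from 0.06 and 0.37 FPKM to 24.4 and 39.5 (7.38 ± 0.82, adjusted p = 0.00593). Its control values lay near 0, and its fold ran from 4.73 to 9.04 over the alternative settings. Of the 14 tested p53 targets 3 rose and 0 fell, with fewer rises without control replicate 3 or either COS+APAP library.

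Protein quality control genes were divided. Of 22 tested heat shock chaperones 3 rose and 7 fell, beside 11% and 10.1% of all tested genes, with a median of -0.05. Without any one of the 4 libraries 0 to 5 rises and 3 to 5 falls were called. The Hsp90 co-chaperone Fkbp4 had 89.3 and 94.0 FPKM in control and 22.4 and 18.5 in COS+APAP and fell by 1.99 ± 0.15 (adjusted p = 0.00302), and Stip1, which links Hsp70 and Hsp90, fell by 1.38. Of 26 tested genes of the endoplasmic reticulum 8 rose and 2 fell, with a median of 0.16 that turned to -0.03 under other scalings, and the 8 rises became 8, 2, 3 and 2 without control replicates 1 and 3 and COS+APAP replicates 2 and 3. Dnajb9 (2.40) and Hspa5 (1.81), both chaperones of that compartment, rose, and both were lost without control replicate 3 (adjusted p up to 0.062 and, over the libraries left out, 0.115). Of 29 tested genes of autophagy and lysosomes 12 rose and 1 fell, with a median of 0.39 and with 2 to 8 rises without any one of the 4 libraries. The lysosomal protease Ctsl had 36.7 and 30.3 FPKM in control and 114 and 165 in COS+APAP (2.23 ± 0.23, adjusted p = 0.00479), and the cargo receptor Sqstm1 rose by 1.92.

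PPARalpha targets and fatty acid oxidation genes numbered 49 tested, coat proteins of lipid droplets among them. Of these 15 rose, 4 fell and 30 did not pass, beside 11% and 10.1% of all tested genes, with a median of 0.30. APAP had 28 rises and 0 falls, beside 23% and 21.6% of all tested genes, with a median of 0.78. Plin4, a coat protein of lipid droplets, had 1.00 and 1.37 FPKM in control and 28.9 and 27.1 in COS+APAP, and 4.08 and 5.97 FPKM in APAP, so COS+APAP was the highest group (4.74 ± 0.25 against control, adjusted p = 0.00191, and 2.47 ± 0.23 against APAP, adjusted p = 0.00635). Cidec, which fuses droplets, had 0.89 and 1.28 FPKM in control and 44.0 and 18.6 in COS+APAP and the higher 121 and 126 in APAP. Plin5 and Plin2 rose by 2.85 and 1.69. Cpt1a, the gate of mitochondrial oxidation, rose by 1.00 (adjusted p up to 0.0864 without control replicate 3 or COS+APAP replicate 2). The peroxisomal thioesterase Acot3 went from 2.70 and 3.84 FPKM to 0.13 and 0.27 (-3.82, adjusted p = 0.00534). Without control replicate 1 or 3 or COS+APAP replicate 2 or 3, 13, 7, 11 and 10 rises were called.

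Among 51 tested genes of the urea cycle and amino acid breakdown 18 rose, 6 fell and 27 did not pass. Of all tested genes 11% rose and 10.1% fell. The median of the 51 was 0.16, and it turned to -0.03 under other scalings. Slc25a22, the mitochondrial glutamate carrier, had 20.8 and 20.5 FPKM in control and 83.8 and 89.7 in COS+APAP, and 37.2 and 43.2 in APAP (2.25 ± 0.12 against control, adjusted p = 0.00191, and 1.10 against APAP, adjusted p = 0.00729). Tat, tyrosine aminotransferase, had 488 and 316 FPKM in control and 1385 and 1676 in COS+APAP, Tdo2, tryptophan dioxygenase, rose by 1.75 and Mat1a, which makes S-adenosylmethionine, by 1.79. Against APAP 9 members were higher and 0 lower. The 18 rises became 14, 7, 13 and 5 without control replicates 1 and 3 and COS+APAP replicates 2 and 3, and Tat (adjusted p up to 0.0716, without control replicate 3 or COS+APAP replicate 3) and Mat1a (0.0501, without COS+APAP replicate 3) were among the losses.

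Clock genes differed from control in both directions, 4 higher and 7 lower of 17 tested, beside 11% and 10.1% of all tested genes. Without any one of the 4 libraries 1 or 2 were higher and 3 to 5 lower. Per3 had 6.87 and 5.83 FPKM in control and 0.74 and 0.52 in COS+APAP (-3.16 ± 0.30, adjusted p = 0.00419) and Per2 fell by 2.08. Hlf, a clock output factor, had 1.26 and 1.00 FPKM in control and 3.55 and 3.83 in COS+APAP and rose by 1.88. Because the labels give no hour of collection, time of day and treatment cannot be told apart here.

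Other genes of hepatocyte metabolism were among the largest falls. Car3 (ENSMUSG00000027559, chromosome 3, 14863512 to 14872523, plus strand), a carbonic anhydrase, had 774 and 699 FPKM in control and 12.8 and 17.2 in COS+APAP, and 48.0 and 25.5 FPKM in APAP. It fell by 5.44 ± 0.41 (adjusted p = 0.00302). Inmt, an indole methyltransferase, went from 567 and 499 FPKM to 23.1 and 20.4 (-4.44 ± 0.18, adjusted p = 0.00155). The steroid dehydrogenases Hsd3b5, Hsd3b2 and Hsd3b3, near-identical copies that can share reads, fell (-4.89, -3.91 and -3.40). Serpina6, which carries corticosteroids in plasma, had 184 and 175 FPKM in control and 18.9 and 14.4 in COS+APAP and 16.8 and 9.10 in APAP. Alcohol dehydrogenase Adh1 had 1172 and 1119 FPKM in control and 256 and 220.2 in COS+APAP (-2.09, adjusted p = 0.00415), and an antisense entry, Gm16559, overlaps it. Of 46 tested P450 genes 4 rose, 10 fell and 32 did not pass, beside 11% and 10.1% of all tested genes, with a median of -0.12. The 10 falls became 7 without either control library and 4 without either COS+APAP library. Cyp26a1, which clears retinoic acid, fell by 3.24 and Cyp3a13 rose by 2.27. Of 21 tested glutathione S-transferases 1 rose and 5 fell (3 or 4 falls without any one of the 4 libraries), with Mgst3 at -2.69, Gsta3 at -2.45 and Gsta1 at 1.97. The Gst genes can share reads, and Gsta1 was not called without control replicate 1 or COS+APAP replicate 3 (adjusted p up to 0.0591).

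Structural genes differed between COS+APAP and APAP. Of 35 tested cytoskeletal genes 3 rose and 4 fell against control, shares near the 11% and 10.1% of all tested genes. Fewer of each were called without any one of the 4 libraries. In APAP 21 rose and 3 fell, beside 23% and 21.6% of all tested genes. In COS+APAP against APAP 0 were higher and 20 lower, beside 11.1% and 10.4%. Krt8, a hepatocyte keratin, had 211 and 239 FPKM in control and 266 and 301 in COS+APAP and 1029.9 and 712 FPKM in APAP, and its difference from APAP was -1.64 ± 0.22 (adjusted p = 0.0109). Of 17 tested collagen and matrix genes 3 rose and 8 fell, beside 11% and 10.1% of all tested genes, and the 8 falls became 2 to 4 without any one of the 4 libraries. Of 11 tested markers of stellate cells 0 rose and 6 fell. The medians of both lists were -0.78 and -0.96. Stellate cells make much of the liver's matrix. Serpinh1, a collagen chaperone, had 7.72 and 9.40 FPKM in control and 1.79 and 1.84 in COS+APAP (-2.06 ± 0.21, adjusted p = 0.0048), and Lrat, which stores retinoids in stellate cells, had 1.66 and 1.85 FPKM in control and 0.76 and 0.55 in COS+APAP (adjusted p = 0.0179, up to 0.0823 without either control library or COS+APAP replicate 3). In APAP 4 of the 11 tested stellate markers rose and 1 fell, beside 23% and 21.6% of all tested genes. The 6 falls became 1, 1, 5 and 0 without control replicates 1 and 3 and COS+APAP replicates 2 and 3, so this count rests on single libraries. All 17 listed stellate markers, tested or not, summed to 103 and 95.7 FPKM in control, 64.5 and 42.5 in COS+APAP and 128 and 113 in APAP.

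Of 15 tested markers of sinusoidal endothelium 1 rose, 6 fell and 8 did not pass, beside 11% and 10.1% of all tested genes, with a median of -0.60. The 6 falls became 3, 3, 5 and 1 without control replicates 1 and 3 and COS+APAP replicates 2 and 3. All 18 listed markers, tested or not, summed to 66.0 and 73.0 FPKM in control, 44.7 and 40.0 in COS+APAP and 74.9 and 75.2 in APAP. The scavenger receptor Stab1 had 3.21 and 3.46 FPKM in control and 7.46 and 7.66 in COS+APAP and rose by 1.36 ± 0.10 (adjusted p = 0.00302), while the Fc receptor Fcgr2b had 3.99 and 5.63 FPKM in control and 1.45 and 1.35 in COS+APAP and fell by 1.59, a call lost without COS+APAP replicate 3 (adjusted p = 0.0503). Of 16 tested Kupffer cell markers 2 rose, Marco (1.64) and Cd163 (1.07), 0 fell and 14 did not pass, a share of rises near the 11% of all tested genes, with Clec4f at 0.29. Most markers of blood leukocytes lay under the filter: 4 of 13 monocyte markers, 3 of 15 neutrophil markers and 2 of 18 lymphocyte markers were tested. Of these 9, Lcn2 rose and Il1b fell, and both are also made by other cells. Il1b was tested only because of its level in control. The rise of Cd163 was lost without any one of the 4 libraries (adjusted p up to 0.105) and the fall of Il1b without control replicate 3 or either COS+APAP library (up to 0.108). The neutrophil genes S100a8, Csf3r and Ly6g did not reach the filter. Of 6 tested erythroid markers 0 were called in COS+APAP, while 5 rose in APAP, and the globin Hbb-bs had 72.3 and 60.9 FPKM in control and 87.6 and 107 in COS+APAP and 532 and 378 in APAP. The part of cell numbers in any of these differences was not tested.

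COS+APAP lay beyond both other groups in the same direction for a set of genes named by the smaller of their differences from control and APAP, among genes with a mean of at least 10 FPKM in the higher group. The highest 8 included Saa2, Saa1, Lcn2, Orm2 and Orm3, and the lowest 8 included Idi1, Insig1, Ces1d and Fos. Aqp8, a water channel also found in mitochondria, had 36.4 and 37.6 FPKM in control and 6.55 and 7.53 in COS+APAP, against 35.6 and 19.8 in APAP. Selenbp2, a selenium-binding protein, had 194 and 107 FPKM in control and 36.7 and 22.9 in COS+APAP and 103 and 122 in APAP. Both were lower than in each other group (against APAP -2.0 and -1.93, adjusted p = 0.0138 and 0.0208), and against control the calls were lost without COS+APAP replicate 3 (adjusted p up to 0.0538 and 0.0743). The remaining 3 of the highest were Gm27252, which overlaps Klf13 on the opposite strand, Gm48199 and an entry for Septin2. Against control, the calls of Insig1 (adjusted p = 0.0557), Gm27252 (0.0581) and Gm48199 (up to 0.0954) were also lost without single libraries.

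Septin2, a cytoskeletal GTPase, had 2 overlapping entries on the same strand. The entry ENSMUSG00000116048 had 2673 and 3587 estimated counts in COS+APAP and was listed at 0 in the other 4 libraries. The entry ENSMUSG00000026276 had 3401 and 3673 counts in control, 403 and 111 in COS+APAP and 2522 and 2608 in APAP. Their sums were 3401 and 3673 in control, 3076 and 3698 in COS+APAP and 2522 and 2608 in APAP. The sums differed less between groups than either entry alone, so no fold is given. Whether reads were assigned differently or the transcripts themselves differed was not tested.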

How the data were processed

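Poly(A) RNA of mouse liver was sequenced from both ends, per the labels' protocols. Per the submitters' processing notes, the tools were HISAT2 2.0 and StringTie 1.3.0. Strand setting and genome build are not given in the sources used here. Gene identifiers numbered 55401, of which 55141 were in mouse GENCODE release 21 (94.2% with identical coordinates), and gene coordinates follow the deposited table. The authors deposited estimated counts for each gene, per the file headers, and these were whole numbers already. The authors also deposited FPKM, per the file headers. Between the control libraries, the ratio of counts divided by that of FPKM lay within 0.997 to 1.003 of its median for the central 90% of 9090 genes. A further 6 value columns matched no sample and were not used.

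Genes with a mean of at least 1 FPKM over the 4 libraries of COS+APAP and control were tested on the counts with edgeR 4.0.16 in R 4.3.3. Genes near 0 in 1 of these groups, such as Fos, Il1b, Psat1 and Sult1e1, reached this limit through the other group alone. The model held 3 groups over all 6 libraries, with TMM scaling, the two-sided quasi-likelihood F test and Benjamini-Hochberg adjustment over 10028 genes, and calls are at an adjusted p below 0.05. Fold changes are on the log2 scale, with standard errors derived from the F statistic. Errors after ± are these standard errors. The scripts were tested on simulated data. The 6 libraries held 71115112 to 76669799 estimated counts. With counts divided by 4, an assumed number of counts per fragment, COS+APAP against control gave 1124 rises and 1048 falls. Whether depth limits the precision was not tested.

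The 46 gene lists (1169 symbols, 955 tested) and the genes described were chosen with earlier results of these data known. List counts and medians cover tested members, carry no set test, and some genes are in several lists. Named by rule were the largest called rise and fall of each list, the 10 largest rises and falls without overlap between groups and the 8 genes furthest above and the 8 furthest below both other groups (all with a mean of at least 10 FPKM in the higher group), the 5 largest gains and losses of FPKM, and a set of sentinel genes. Further members were named after their values were seen. The APAP comparison uses the same control libraries, so its values are set side by side. Each list count is to be read beside the shares of all tested genes in its own comparison. These were 11% higher and 10.1% lower in COS+APAP against control, 23% and 21.6% in APAP against control, and 11.1% and 10.4% in COS+APAP against APAP.

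Promoters were the 250 bases before the gene start from RefSeq (GRCm38.p6), matched by symbol, chromosome and strand. Alternatives were other scalings, filters and models, DESeq2 1.42.0, limma 3.58.1 on log2 FPKM, a replicate block, and leaving out each library. A few genes are not reported here.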

Additional observations from a re-analysis of the deposited data

How the results depend on the processing

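Against control, COS+APAP gave 1106 rises and 1008 falls. These became 701 and 1686 with library totals without TMM, 645 and 668 with a mean of at least 5 FPKM, 1717 and 1714 with DESeq2, 702 and 1719 with limma on log2(FPKM + 1) (29% of calls higher) and 676 and 1604 with limma on log2(FPKM + 0.1) (29.6% higher). Leaving out 1 library gave 333 to 882 rises and 285 to 890 falls. APAP against control gave 1089 and 1121 with at least 5 FPKM, and 1517 to 2110 rises and 1425 to 1899 falls without 1 library. COS+APAP against APAP gave 542 and 489 with at least 5 FPKM, 1727 and 1776 with DESeq2, and 247 to 896 higher and 286 to 922 lower without 1 library. Scaling moved the split between directions in the other comparisons too: APAP against control gave 1698 and 2983 with library totals and 1806 and 2849 with upper quartiles, beside 2304 and 2163, and COS+APAP against APAP gave 1660 and 811 with upper quartiles, beside 1112 and 1038. With the replicate block, COS+APAP against control gave 113 rises and 77 falls and COS+APAP against APAP 20 and 14. Control and COS+APAP share only replicate number 3, and deviations of same-numbered libraries from their group means had correlations of -0.029 to 0.031. With 2 libraries a group, both deviate from their mean by the same amount in opposite directions. These correlations therefore cannot tell whether the numbers pair the samples. The other alternatives left the counts of COS+APAP against control within 1.5 times. Of 136 genes named by rule 120 were called, 36 of these in every setting, and of the called genes 0 changed sign. Of the genes not called, Alb, Cyp7a1, G6pc, Gclm and Scd1 lay on either side of 0 over the settings. Folds of genes near 0 in control moved beyond their standard errors, Cdkn1a from 4.73 to 9.04, Psat1 from 2.04 to 5.02 and Sult1e1 from 1.86 to 6.55. Whether depth limited the genes described was not tested. With 2 libraries a group, a call lost without 1 library then rests on a lone library assumed to vary like the other groups.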

Other observations

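Of 31 tested genes of glucose metabolism 7 rose and 9 fell in COS+APAP against control, beside 11% and 10.1% of all tested genes. Leaving out control replicates 1 and 3 and COS+APAP replicates 2 and 3 in turn gave 7, 2, 2 and 2 rises and 5, 5, 5 and 4 falls. Ldha, lactate dehydrogenase, had 162 and 127 FPKM in control and 416 and 396 in COS+APAP and rose by 1.66 (edgeR adjusted p = 0.00439). Ppp1r3b, a subunit that brings protein phosphatase 1 to glycogen, had 38.2 and 50.0 FPKM in control and 10.7 and 10.7 in COS+APAP, and the still lower 4.04 and 3.60 FPKM in APAP (-1.86, adjusted p = 0.00358). The glucose transporter Slc2a2 stood at -0.93 (adjusted p = 0.0499, not called without any one of the 4 libraries, up to 0.185). The gluconeogenic genes Pck1 and G6pc did not pass (0.51 and -0.06, adjusted p = 0.319 and 0.919).

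Genes of ribosome biogenesis had 12 rises and 0 falls among 33 tested, beside 11% and 10.1% of all tested genes, with a median log2 fold change of 0.43. APAP had 23 rises, beside 23% of all tested genes. Ddx21, a nucleolar helicase, had 4.40 and 4.38 FPKM in control and 6.82 and 8.14 in COS+APAP, and 14.6 and 14.9 FPKM in APAP. The 12 rises became 5, 3, 5 and 1 without control replicates 1 and 3 and COS+APAP replicates 2 and 3, and that of Ddx21 was lost without control replicate 3 (adjusted p = 0.0519). The 13 mitochondrially encoded transcripts had a median of -0.1 in COS+APAP and of -0.7 in APAP, where 8 fell. Of 47 nuclear genes of the respiratory chain 0 rose and 2 fell (median -0.21), and with library totals alone as the scale 17 fell.

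Of 29 tested genes of growth hormone signalling and major urinary proteins 1 rose, Elovl3 (2.60, adjusted p = 0.0172, up to 0.0926 without either control library), and 5 fell. Without any one of the 4 libraries 1 to 4 rises and 2 to 5 falls were called. Ghr, the growth hormone receptor, stood at -0.84 (adjusted p = 0.00908), and the pheromone carrier Mup20 at -0.35 (adjusted p = 0.509), and the call of Ghr was lost without COS+APAP replicate 3 (adjusted p up to 0.0538). Of another list, the estrogen sulfotransferase Sult1e1 had 0.22 and 0.03 FPKM in control and 2.27 and 4.08 in COS+APAP, and 6.06 and 1.71 FPKM in APAP (4.75 ± 1.00 against control, adjusted p = 0.0271), and the call of Sult1e1 was lost without control replicate 3 or COS+APAP replicate 2 or COS+APAP replicate 3 (adjusted p up to 0.0994).

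Against control in COS+APAP, plasma proteins and coagulation factors had 13 rises and 5 falls among 52 tested (median 0.22), beside 11% and 10.1% of all tested genes, and 7, 4, 5 and 2 rises and 1 or 2 falls without control replicates 1 and 3 and COS+APAP replicates 2 and 3. Most of the small counts that follow also shifted without single libraries. Bile acid synthesis and transport had 4 rises and 2 falls among 30 (median -0.05). Glucuronidation and sulfation had 4 rises and 5 falls among 25, cell death genes 4 and 3 among 20, and transcription factors of hepatocytes and drug response 2 and 3 among 28. Cell cycle genes had 2 rises and 2 falls among 13, and genes of fibrinolysis 1 rise among 5. Of the hepatocyte markers 2 of 6 rose.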
